A study of Xenopus laevis with 6 samples.

Results

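The vezf1 gene of Xenopus laevis is present as a pair of homeologs, vezf1.L on chromosome 2L and vezf1.S on chromosome 2S, and both carried a consensus Etv6 ChIP-seq peak in somite explants. X. laevis is allotetraploid, and its chromosomes exist as a longer (L) and a shorter (S) version inherited from different ancestors. The vezf1 peaks were the rows overlapping chr2L:60534927-60536057 and chr2S:61776234-61776811 of the v9.1 genome, which made up 2 of the 9128 peaks in the list. Both copies were chosen from the measured values themselves. They were picked for having a peak at the gene, for the long peak on L and for the second peak beside that on S. Their peaks, lengths and spacing are therefore given as a description, with no test.

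Vezf1 is a zinc finger transcription factor that was named for its expression in vascular endothelium, and in mouse it is needed for normal development of blood and lymphatic vessels. Etv6 is an ETS family transcription factor known mainly as a repressor, and in Xenopus it acts in the somites upstream of the growth factor gene vegfa. In the study's own RNA-seq, both vezf1 copies were classed as repressed by Etv6, that is, more highly expressed in etv6 morpholino (MO) than in wild-type somites. Those expression values belong to another dataset and were not analysed here, so the peaks below show where Etv6 was found and not what it did to either copy.

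The peaks come from 3 Etv6 ChIP samples and 3 matched inputs, all from wild-type J-strain embryos at stage 22, with no treatment or mutation in any sample. ChIP used a rabbit polyclonal antibody raised against a Xenopus Etv6 peptide, and the inputs were taken from the same chromatin without antibody. Each ChIP pooled dissected tissue of many embryos, and because the dissection took neighbouring axial tissues along with the somites, a peak cannot be assigned to the somites alone. The processed list gives a start, an end and a number for each peak and no value per sample. The depth behind a peak is therefore unknown here, and no replicate error could be given. How uniquely reads mapped to each copy was not examined, so interval edges need not be the edges of Etv6 binding.

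At vezf1.L, the Etv6 consensus peak was a single interval of 1131 bp. This peak was 2.09 times as long as the median consensus peak of 542 bp (quartiles 414 and 742 bp) and at least as long as 93.0% of the list, with 639 longer peaks. The study assigned 545 peaks to putative direct target genes, called direct target genes here. These are genes with an Etv6 peak at the transcription start site (TSS) and a changed RNA level. Among the 545 peaks, that of vezf1.L was at least as long as 96.9%, and 17 were longer. The vezf1.L peak was in the upper tail of the lengths, both in the whole list and among direct target peaks. Its length was a ground for choosing vezf1, so these ranks are description only.

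At vezf1.S, the peak assigned to the gene measured 578 bp, 1.07 times the median, and was at least as long as 56.0% of the list. Directly to its right lay another consensus peak, at chr2S:61776868-61777990, which is called the companion here and was assigned to no direct target gene. The companion measured 1123 bp, 1.94 times the length of the vezf1.S peak and at least as long as 92.8% of the list. Only 56 bp separated the 2 intervals on S. The companion was 8 bp shorter than the vezf1.L peak, and 7.25% of the list was at least as long as the companion. No sequences were compared, so whether the companion or the vezf1.S peak corresponds to the vezf1.L peak was not tested.

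**Figure D1:**
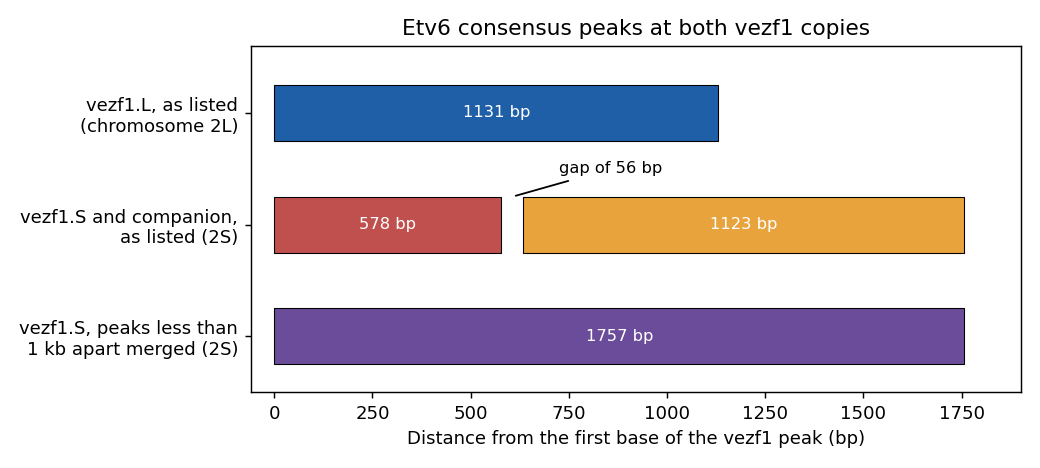
Consensus Etv6 peaks at vezf1.L (blue), vezf1.S (red) and the companion of vezf1.S (orange), with the distance in bp from the first base of the vezf1 peak on the horizontal axis. The bottom bar (purple) is the S pair merged across its gap of 56 bp, which reached 1757 bp against 1131 bp on L.

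Which copy had the longer called interval depended on whether the S pair was read as 1 interval or as 2. As listed, the vezf1.L peak was 553 bp longer than the vezf1.S peak, or 1.96 times its length. With peaks less than 100 bp or less than 1 kb apart merged, the S pair became 1 interval at chr2S:61776234-61777990 of 1757 bp, and vezf1.L kept its 1131 bp because its nearest other peak was 62.2 kb away. The difference of L minus S then became -626 bp, and the S interval was 1.55 times as long as that on L. The 2 S peaks covered 96.8% of the merged interval, 66.0% of the covered bases being in the companion. Most of the merged interval thus lies outside the study's vezf1.S peak, and the study did not list the companion at the TSS of a direct target gene. A direction of the L and S difference at vezf1 therefore cannot be stated without stating how the peaks were delimited.

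After merging, the vezf1.S interval was at least as long as 95.2% of the 8403 intervals left at a merging distance of 1 kb, and the vezf1.L interval at least as long as 88.9% of them. The plot of lengths shows the peaks before merging. In it, vezf1.S as listed lies near the middle and its merged interval in the tail, whereas vezf1.L has the same length either way.

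**Figure D2:**
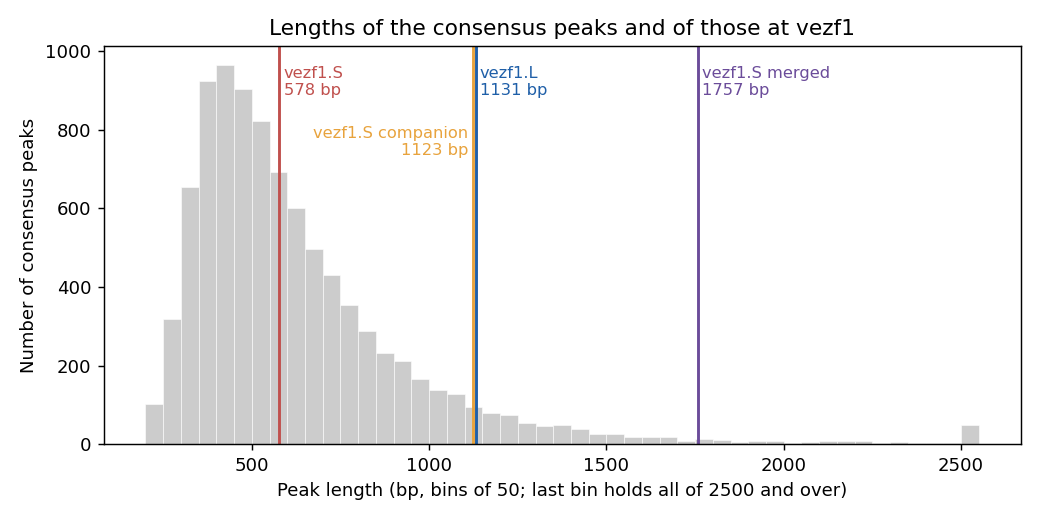
Number of consensus peaks by length in bp (grey bars, 9128 peaks), with vertical lines at vezf1.S (578 bp), its companion (1123 bp), vezf1.L (1131 bp) and the merged vezf1.S interval (1757 bp). The lines of vezf1.L and the companion nearly coincide.

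The list was built by pooling and merging the peaks that MACS2 called in each ChIP replicate and keeping merged peaks found in all 3. Each of the vezf1.L peak, the vezf1.S peak and the companion therefore had support in all 3 replicates. Under such merging, a replicate peak that spanned the 56 bp between the S peaks would have joined them, so by this method none of the 3 replicates had a called peak across that gap. In the same way, the single interval on L may hold peaks that were separate in 1 replicate and bridged in another. Lengths per replicate were not analysed here, so whether the difference between 1 interval on L and 2 on S exceeds the spread between replicates was not tested.

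A companion less than 100 bp away was uncommon. Of the 2 vezf1 peaks 1, that of vezf1.S, had another peak less than 100 bp away, as did 330 of all 9128 peaks (3.62%) and 10 of the 545 direct target peaks (1.83%). At less than 1 kb, the counts were 1316 of all peaks (14.4%) and 21 of the direct target peaks (3.85%). The list held 169 gaps under 100 bp, with a median of 58 bp, and 82 of them were no wider than the gap at vezf1.S. That gap thus lay near the middle of this set, which was cut at 100 bp. For 6 of the 10 direct target peaks, the neighbour was assigned to the same gene, and these were the pairs at awat1.S, elmo1.L and hes1.S. The companion was unassigned for 4 peaks, those of vezf1.S, LOC100487248-like.L, LOC101733611.L and Xelaev18004446m.g. It was longer than the assigned peak in 2 of these 4, at vezf1.S (1123 against 578 bp) and at LOC100487248-like.L (1019 against 522 bp). These genes were named after their values were seen.

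The vezf1 copies were then set beside the other genes that had a direct target peak at both homeologs. There were 34 such pairs by gene name, vezf1 included. The L peak was the longer one in 16 pairs and the S peak in 18, and the median size of the difference was 136.5 bp. The contrast between the L and S peaks was a ground for choosing vezf1, so its rank here and after merging is description only. With 553 bp, the difference at vezf1 ranked 3 of 34 by size. The larger differences were those at foxo3, a forkhead transcription factor gene (895 bp on L and 291 bp on S, a difference of 604 bp), and at pdk3, a pyruvate dehydrogenase kinase gene (480 bp on L and 1057 bp on S, a difference of -577 bp). Like vezf1.L, foxo3.L had the longer peak, while pdk3 had it on S.

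Merging peaks less than 1 kb apart changed the length at 3 of the 34 pairs and left the other 31 as listed. The 3 were vezf1, osgin2 and paqr4-like, the last 2 being named after their values were seen. The osgin2 pair resembled vezf1, with 1163 bp on L and 666 bp on S as listed, and 1163 and 1246 bp after merging, because a peak lay 154 bp from that of osgin2.S. At paqr4-like the second peak lay on the L side, 426 bp from the target peak, and the L interval went from 899 to 1812 bp against 631 bp on S. The direction of the difference turned at 2 of the 34 pairs, vezf1 and osgin2. After merging, the difference at vezf1 ranked 2 of 34 by size, behind paqr4-like and ahead of foxo3 and pdk3.

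**Figure D3:**
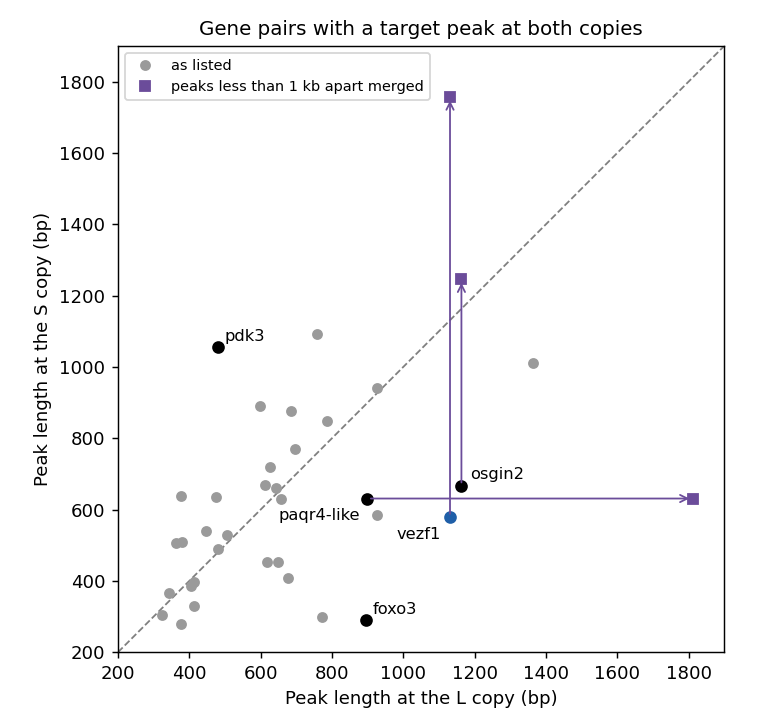
Peak length in bp at the L copy (horizontal) and S copy (vertical) of the 34 gene pairs with a direct target peak at both copies; the dashed line marks equal lengths. Circles are peaks as listed and squares with arrows the 3 pairs that changed when peaks less than 1 kb apart were merged, where vezf1 moves from below to above the line.

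Within 1 Mb on either side, each vezf1 peak had 3 other peaks, the companion counted on S, whereas the median over the 6118 peaks on chromosomes was 6 (quartiles 3 and 9), and 26.8% of them had 3 or fewer. The nearest other peak lay 62.2 kb from vezf1.L, near the median of 71.3 kb over these peaks (quartiles 9.41 and 220 kb). Of these peaks, 47.3% had another as close or closer. For vezf1.S the nearest was the companion, at 0.056 kb. On L, the neighbours were a peak of 548 bp at 933 kb and one of 825 bp at 276 kb to the left, and one of 488 bp at 62.2 kb to the right. On S, apart from the companion, they were peaks of 455 and 549 bp, at 362 and 346 kb, both to the left. To the right of the S pair no peak followed for 1057 kb. Within 1 Mb, the named vezf1 peak was longer than each neighbour except the companion on S. Between 1 and 2 Mb away, longer peaks were present, of up to 1959 bp on 2L and 729 bp on 2S.

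The copies were also compared by the number of these neighbours, and no difference was detectable with so few peaks. With the members and the companion left out, 3 of 5 neighbouring peaks lay at vezf1.L, which is 60.0% (exact 95% interval 14.7 to 94.7%). A two-sided exact binomial test against 50% gave p = 1.0, and with 5 peaks the test could not go below 0.0625. Within 2 Mb, 11 peaks lay at vezf1.L and 10 at vezf1.S (52.4% at L, exact interval 29.8 to 74.3%, exact binomial test, two-sided, p = 1.0). Peaks were the units of this test, and neighbouring peaks are not independent.

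**Figure D4:**
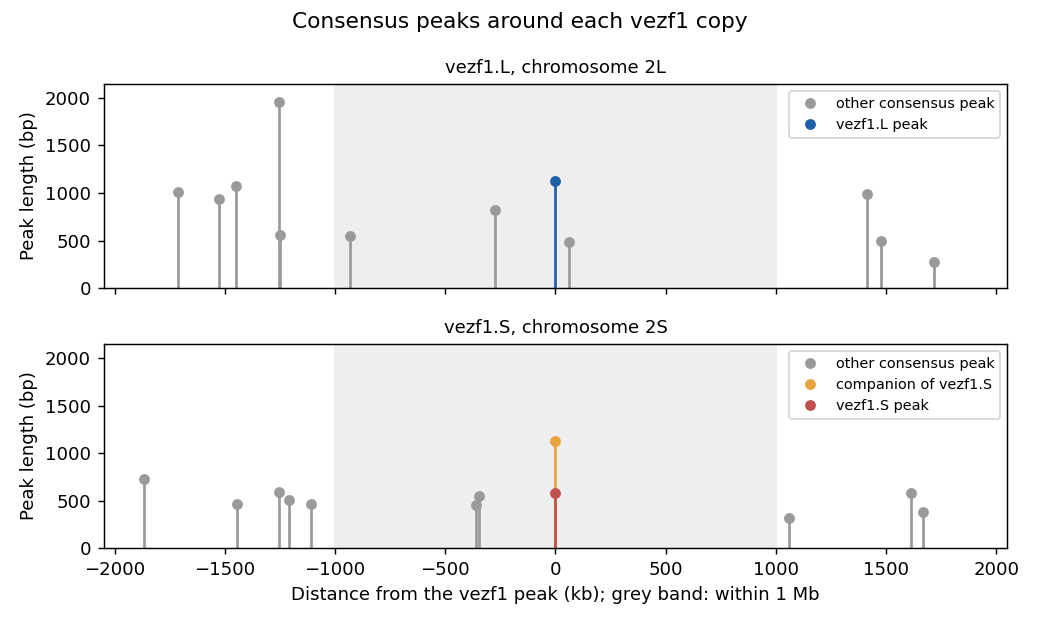
Consensus peaks within 2 Mb of vezf1.L (top) and vezf1.S (bottom), with distance from the vezf1 peak in kb on the horizontal axis and peak length in bp on the vertical axis. The grey band marks 1 Mb on either side, in which 3 other peaks accompany each copy, 1 of them the companion (orange) at vezf1.S.

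No other direct target peak lay within 1 Mb of either copy. The nearest on 2L were those of cdkn1a.L, which encodes a cyclin-dependent kinase inhibitor, 6.17 Mb to the left, and of nav1.L, a neuron navigator gene, 6.81 Mb to the right. Between vezf1.L and these genes lay 15 and 21 other consensus peaks. On 2S, the nearest were those of ipo9.S, an importin gene, 1.26 Mb to the left, and of fam46b.S, 1.67 Mb to the right, with 4 and 3 consensus peaks between. The flanking direct targets were thus different genes on each chromosome, although genes named alike surrounded both copies.

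In the RefSeq gene table of the later v10.1 genome, used for gene order only, the vezf1 region ran in opposite directions on the L and S chromosomes. To the left of vezf1.L were cuedc1.L, guca1c.L and the pseudogene LOC108707482, and to its right srsf1.L, a splicing factor gene, tada2a.L and the lncRNA LOC108707702. To the left of vezf1.S were the lncRNA LOC121400556, srsf1.S and the lncRNA LOC121400347, and to its right cuedc1.S, guca1c.S and LOC108709508. Of the genes named alike within 20 places of both vezf1 copies, 15 of 15 lay on opposite sides, among them acaca and lhx1. Listed direct target peaks numbered 33 on 2S and 39 on 2L, and 19 genes on each could be matched to the table. Those of 2S included ipo9.S, vezf1.S and fam46b.S (tent5b.S in the table). The matched genes followed each other in the same order in both genomes in 18 of 18 neighbouring pairs on 2S. On 2L this held for 17 of 18 pairs. The order of genes that were not matched was not checked.

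If the order of v10.1 holds in v9.1, the companion lay on the cuedc1.S side of the vezf1.S peak, and both other S neighbours on the srsf1.S side. On L, the neighbours at 933 and 276 kb lay on the cuedc1.L side and the one at 62.2 kb on the srsf1.L side. No listed gene close to either copy was available to check the local order in v9.1. Even on 2S the nearest, ipo9.S and fam46b.S, lay 1.26 and 1.67 Mb from the vezf1.S peak. Peaks at a like distance on the mirrored side were not seen within 1 Mb. The distances on the srsf1 side were 62.2 kb on L and 346 and 362 kb on S. On the cuedc1 side they were 276 and 933 kb on L, and 0.056 kb on S for the companion. The next S peak on that side lay 1058 kb from the vezf1.S peak, just outside the window, so the absence depends on the window width. The study listed the vezf1.S peak, and not the companion, among peaks at the TSS of direct target genes. The TSS position and the direction of transcription in v9.1 were not used here. The distance of each S peak from the start of the gene was therefore not determined.

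The peak number is a column whose meaning is not stated. It ran from 2266 to 2273 over the 4 peaks within 1 Mb around and including vezf1.L. Of these 8 numbers, 4 were missing among the peaks in this window. Whether they occur elsewhere in the list was not checked. Over the 4 peaks around and including vezf1.S the peak number ran from 3282 to 3285 with 0 missing. Within 2 Mb the number ran from 2259 to 2283 around vezf1.L and from 3272 to 3298 around vezf1.S, with numbers missing around both. The contrast within 1 Mb therefore depends on the window width, and the share of missing numbers over the whole list was not computed. The vezf1.S peak and its companion bore consecutive numbers, 3284 and 3285.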

How the data were processed

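According to the methods and the processing notes, the authors trimmed reads with Trimmomatic 0.32, mapped them to X. laevis v9.1 with BWA 0.7.12, ran MACS2 with default settings on each ChIP sample with the input of the same number as control, and combined the 3 peak sets in DiffBind, where a peak had to occur in all 3. The deposited score was 0 in every row and was not used. The list holds 0 columns of per-sample values.

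The 545 peaks that the study assigned to genes matched the list once 2 bp were added to each deposited start (0 matched before), and 303 deposited starts lay below 0. Starts here have 2 bp added, and length is end minus start plus 1. Only gene names and positions were taken from that assignment. Distances count the bases between peaks.

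Two-sided exact binomial tests and Clopper-Pearson 95% intervals, which cover counting error only, used SciPy 1.17.1 with Python 3.11.15, NumPy 2.4.6 and pandas 2.3.3; plots used Matplotlib 3.10.9. The interval code was tested on simulated data. The members, lists and tests were chosen with earlier results of these data known. Genes named were both vezf1 copies, the nearest listed target on each side, 3 RefSeq neighbours on each side and pairs with a difference at least that of vezf1. Gene order came from the RefSeq table of v10.1, whose coordinates were not used. Promoter and protein sequences were not analysed here. Alternatives changed the start, the merging distance, the peaks ranked and the width of the neighbourhood.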

Additional observations from a re-analysis of the deposited data

How the results depend on the processing

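No paired analysis was possible because peaks have no values for single samples, and for the same reason no replicate could be left out. Without the shift of 2 bp, as deposited end minus deposited start, the vezf1.L peak measured 1132 bp and the vezf1.S peak 579 bp. Merging peaks less than 100 bp or less than 1 kb apart took vezf1.S from 578 to 1757 bp and turned the difference of L minus S from 553 to -626 bp, by construction, since the companion lies 56 bp away, and left vezf1.L at 1131 bp. The share of peaks no longer than that of vezf1.L was 93.0% in the list, 96.9% among direct target peaks and 88.9% after merging at 1 kb. For vezf1.S it was 56.0% in the list, 54.9% among peaks on chromosomes and 95.2% after merging at 1 kb. The L share of neighbouring peaks was 60.0% within 1 Mb (3 on L and 2 on S), 100.0% within 250 kb (1 and 0), 50% within 500 kb (2 and 2) and also 50% with the companion counted (3 and 3). The smallest p that the exact binomial test could give was 0.0625 within 1 Mb, 1.0 within 250 kb and 0.125 within 500 kb, so these settings say nothing about whether the share is stable. Over the 6 results, 7 of 19 alternatives left a length as it was, a share of the list within its exact interval or the L share above 50%. Another 10 did not, and 2 reversed the difference of L minus S. Some of the 7 could not have moved, such as merging at vezf1.L, whose nearest other peak lay 62.2 kb away. The planned motif counts and protein alignment were not run, as no sequences were used here. The list has no depth or enrichment per peak, so a weak peak cannot be told from a strong one at either copy.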
